A study of Mus musculus with 24 samples.

Results

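Fatty acid uptake and beta-oxidation genes, 40 in all, were examined among the 24454 genes counted by RNA sequencing in mouse organ of Corti (OC) explants. Members were the rows whose Entrez identifier carried one of 40 gene symbols, by a rule that uses no measured value, although the genes were listed with earlier results of these data known. The OCs came from C57BL/6N pups of both sexes at postnatal day 5, and 6 OCs were pooled for each library. After 24 h of pre-incubation they were cultured for 6 or 24 h in medium alone (CTRL), with 50 µM gentamicin (GM), with 10 µM pioglitazone (PIO) or with both agents at these concentrations (PIO+GM), giving 8 groups of 3 libraries and 24 libraries in all. All groups therefore shared the dissection and the culture itself, and none was uncultured tissue. Gentamicin is an aminoglycoside antibiotic that damages auditory hair cells, and pioglitazone activates the nuclear receptor PPAR-γ. The comparisons ask how each agent, and time in culture, moved transcripts of fatty acid breakdown. Nothing in the labels states that replicate libraries came from separate litters, so p-values measure the spread between these pools, which may be partly technical.

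Long-chain fatty acids are released from lipoproteins by lipoprotein lipase, cross the plasma membrane with the help of CD36 and fatty acid transport proteins, and are bound in the cytosol by fatty acid binding proteins. Acyl-CoA synthetases activate them, and the carnitine shuttle (CPT1, the carnitine-acylcarnitine translocase and CPT2) carries the acyl groups into the mitochondrial matrix, where the beta-oxidation spiral shortens them and passes electrons to the respiratory chain through the electron transfer flavoprotein. Peroxisomes shorten very long and branched chains first. Many of these genes are known targets of the PPAR family in liver, muscle and fat.

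The libraries held 7211357 to 15548856 counts (median, 12538495). Levels are given as CPM, the counts scaled to library size, on which 3 counts were worth 0.193 to 0.405. The common biological coefficient of variation was 0.225, and it was 0.252 in the 6 h libraries alone against 0.194 in the 24 h libraries alone. A gene was tested when it passed a filter on low counts, which left 16317 genes, and it was called when its Benjamini-Hochberg adjusted p in edgeR's quasi-likelihood test was under 0.05. Of the 40 members 39 were tested. The exception was Fabp4, the fatty acid binding protein of adipocytes, with between 0 and 24 counts per library. Hair cell markers (summed level, 151 to 457 CPM) and supporting cell markers (2067 to 6542 CPM) were present in every library, as the labelled tissue requires. Adipocyte markers were near 0, with a summed level of the 6 genes between 0.330 and 3.92 CPM, Plin1 at 0 in 14 libraries and Adipoq at 0 in 7. The summed level of 10 muscle markers lay between 2.48 and 8.26 CPM. Of these, Ckm was at 0 in 10 libraries, whereas Acta1, Tnnt3, Actn3 and Mylpf were at 0 in none. Among the 6 h libraries 3 stood apart, all with pioglitazone. In replicate 2 of PIO and replicates 2 and 3 of PIO+GM, expression relative to the mean of the time point fell with the GC content of the transcript (Spearman's rho across genes, −0.64, −0.56 and −0.63), whereas rho lay between 0.0933 and 0.531 in the other nine. Calls for the averaged pioglitazone effect at 6 h and for the comparisons of times are therefore also given without them.

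Most members were well expressed. On a per-length scale (RPKM, the CPM per kilobase of transcript), 30 of the 39 tested members lay above the median of all tested genes over the 24 libraries, and 4 lay in the top 10%. The acyl-CoA synthetase gene Acsl3 had the highest level, with a mean of 108 RPKM in CTRL at 6 h and 130 RPKM at 24 h. In CTRL at 6 h the next were Slc27a1, the gene of a fatty acid transport protein (37.8 and 39.2 RPKM), Hadh, which encodes a hydroxyacyl-CoA dehydrogenase of the spiral (34.5 and 53.4 RPKM), Acadvl, the very-long-chain acyl-CoA dehydrogenase gene (32.1 and 34.5 RPKM), and Eci2, which encodes an enoyl-CoA isomerase (28.8 and 43.9 RPKM). Among the lowest, Ucp3, an uncoupling protein gene of muscle, was at 0.476 and 0.516 RPKM, Fabp4 at 0.550 and 0.251 RPKM, and Cpt1b, the muscle isoform of CPT1, at 2.79 and 2.37 RPKM. Lpl, the lipoprotein lipase gene, was at 3.57 and 3.74 RPKM, and Ehhadh, the peroxisomal bifunctional enzyme gene, at 1.74 and 2.95. Within groups, the tested members deviated from their group means with a median pairwise correlation of 0.177 over 24 libraries. It was 0.371 for the 15 genes of the mitochondrial spiral, of unsaturated chains and of electron transfer, and −0.003 for every 20th tested gene. These pairs share libraries and depth, and the correlations are given as a description.

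**Figure D1:**
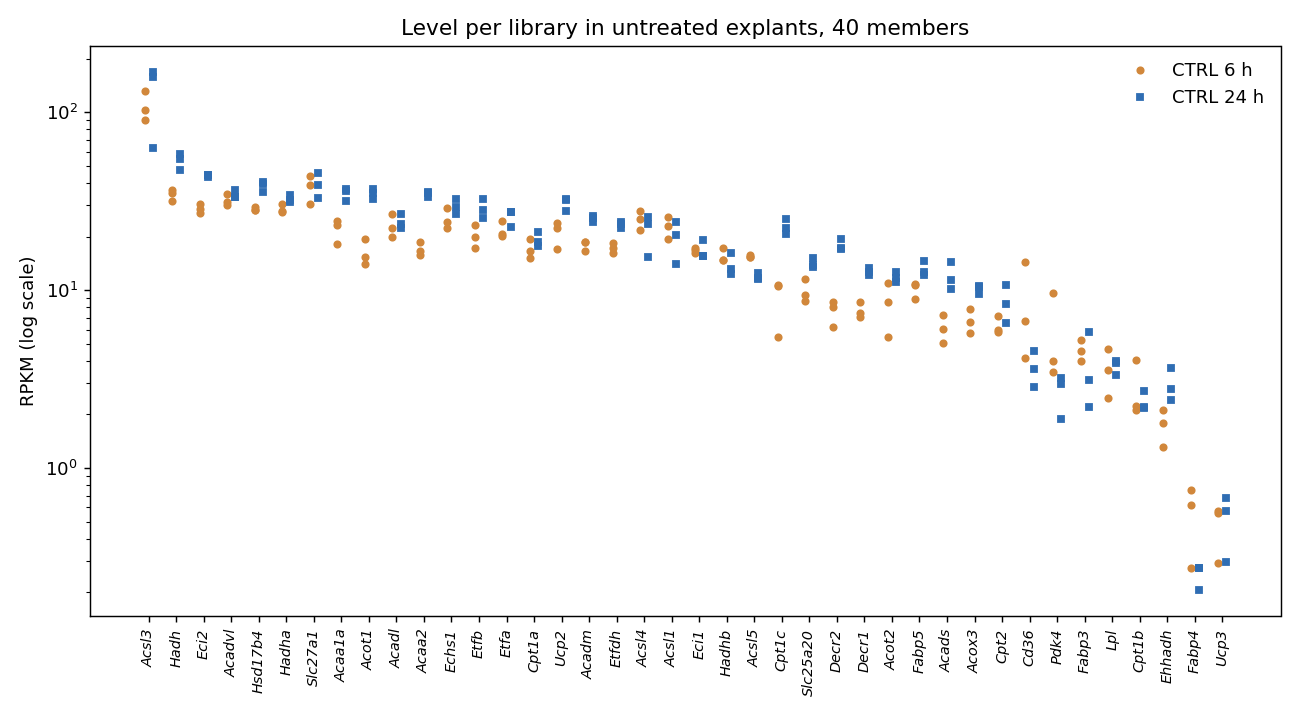
Level of each of the 40 members in the CTRL libraries at 6 and 24 h, in RPKM on a log axis. There is 1 point per library, and the members are ordered by mean level over the 24 libraries. Acsl3 lies highest at both times, and Ucp3 and Fabp4 lie lowest.

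At both times, pioglitazone raised transcripts of 2 genes of the carnitine shuttle and of further genes of mitochondrial oxidation and the fuel switch. To use all 12 libraries of a time point, the effect was averaged over the absence and presence of gentamicin (6 libraries with pioglitazone against 6 without). At 6 h, 11 members rose and 1 fell, that is 30.8% of those tested against 16.1% of all genes (9.25% called higher and 6.83% called lower). At 24 h, 7 members rose and 1 fell, that is 20.5% against 2.79% of all genes (0.791% and 2.00%). The median log2 fold change of the members was 0.13 at 6 h and 0.23 at 24 h, and that of all tested genes was −0.02 and −0.002. The 6 members called higher at both times (6 of the 11 and 6 of the 7) were Cpt1a, Slc25a20, Acadl, Hadha, Eci2 and Pdk4. In these bulk samples, fewer cells of a type and less RNA per cell cannot be told apart.

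Cpt1a encodes the CPT1 isoform that governs entry of long-chain fatty acids into mitochondria in most tissues. At 6 h its level was 71.2, 83.5 and 64.8 CPM in the CTRL libraries and 71.0, 84.9 and 73.2 in GM, against 148, 121 and 136 in PIO and 144, 116 and 129 in PIO+GM. At 24 h it was 76.1, 91.8 and 80.1 CPM in CTRL and 82.4, 87.6 and 88.9 in GM, against 182, 193 and 165 in PIO and 191, 184 and 164 in PIO+GM. Every library with pioglitazone lay above every library without it at both times. Cpt1a thus rose 1.77-fold at 6 h (log2 fold change ± SE, 0.82 ± 0.08; adjusted p = 3.93e-05) and 2.13-fold at 24 h (1.09 ± 0.08; adjusted p = 7.16e-07). Without the 3 libraries that stood apart, its log2 fold change at 6 h was 0.94 (adjusted p = 0.000291). The other CPT1 genes did not pass the test at either time: the log2 fold change of Cpt1b was −0.15 at 6 h and 0.13 at 24 h, and that of Cpt1c, the isoform of the brain, was −0.34 and 0.12.

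The promoter windows of the 4 members with the lowest adjusted p at 24 h are shown because these genes moved at both times. Each runs from 250 bases before to 50 bases after the start of transcription (RefSeq sequence, build GRCm38.p6, 5′ to 3′ on the strand of the gene). Capitals mark matches to AGGNCA on either strand, a loosened form of the core motif of nuclear receptors.
Cpt1a, chr19:3323051-3323350, plus strand: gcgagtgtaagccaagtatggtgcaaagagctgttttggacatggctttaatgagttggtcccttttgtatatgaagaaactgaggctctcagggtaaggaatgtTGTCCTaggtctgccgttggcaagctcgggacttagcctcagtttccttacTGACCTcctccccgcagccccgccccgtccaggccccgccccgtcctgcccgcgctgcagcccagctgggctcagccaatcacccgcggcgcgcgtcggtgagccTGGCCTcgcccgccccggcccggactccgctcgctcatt
Acadl, chr1:66863260-66863559, minus strand: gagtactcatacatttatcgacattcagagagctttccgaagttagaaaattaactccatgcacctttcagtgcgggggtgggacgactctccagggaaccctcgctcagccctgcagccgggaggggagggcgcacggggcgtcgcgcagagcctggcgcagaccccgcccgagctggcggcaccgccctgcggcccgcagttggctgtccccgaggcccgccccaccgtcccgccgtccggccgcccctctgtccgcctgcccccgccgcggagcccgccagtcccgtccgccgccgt
Pdk4, chr6:5496229-5496528, minus strand: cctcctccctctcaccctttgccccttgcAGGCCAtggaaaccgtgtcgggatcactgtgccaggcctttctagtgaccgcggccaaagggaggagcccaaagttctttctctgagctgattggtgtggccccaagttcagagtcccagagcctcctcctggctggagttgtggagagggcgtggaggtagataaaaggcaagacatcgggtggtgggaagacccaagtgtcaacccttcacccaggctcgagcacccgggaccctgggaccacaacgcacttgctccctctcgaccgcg
Eci2, chr13:34994095-34994394, minus strand: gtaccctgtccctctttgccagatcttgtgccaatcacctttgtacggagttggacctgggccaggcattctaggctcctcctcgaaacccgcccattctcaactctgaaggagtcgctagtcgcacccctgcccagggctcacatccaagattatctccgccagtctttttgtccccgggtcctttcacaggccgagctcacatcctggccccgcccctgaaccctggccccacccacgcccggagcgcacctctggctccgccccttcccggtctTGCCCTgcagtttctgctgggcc
The Cpt1a window held 3 matches, those of Pdk4 and Eci2 held 1 each, and that of Acadl held 0. Promoter windows were found for 33 of the 40 members (36 windows, some genes having several starts). AGGNCA occurred in 69.4% of the 36 and in 57.2% of all 32851 windows, and its stricter form AGGTCA in 19.4% and 16.3%. AGGTCANAGGTCA, the direct repeat with a 1-base spacer to which PPAR binds with its partner RXR, occurred in 0 of the 36 windows and in 0.04% of all windows. These counts overlap, since each stricter motif contains the looser one, and a match is a description of letters in the window.

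Next to Cpt1a in the shuttle, Slc25a20, the gene of the carnitine-acylcarnitine translocase, ranged from 15.4 to 20.6 CPM without pioglitazone and from 19.2 to 27.4 CPM with it at 6 h, with overlapping groups. At 24 h the ranges were 21.6 to 30.6 and 31.9 to 37.7 CPM and did not overlap. It rose by 0.37 ± 0.10 on the log2 scale at 6 h (adjusted p = 0.0232) and by 0.44 ± 0.10 at 24 h (adjusted p = 0.0273). These calls were lost in 4 of 12 fits at 6 h and 8 of 12 at 24 h that each left out 1 library, with adjusted p up to 0.0704 and 0.0791. Its value at 6 h without the 3 libraries that stood apart was 0.40 (adjusted p = 0.109). Cpt2, which rebuilds acyl-CoA on the matrix side, did not pass the test, although its 6 pioglitazone libraries at 24 h (25.5 to 33.1 CPM) all lay above the 6 others (15.4 to 25.0 CPM; log2 fold change, 0.44 ± 0.13; adjusted p = 0.0708). It was called at 24 h by DESeq2, with a trend on GC content removed from each library, and in the fit of the 12 libraries of 24 h alone.

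**Figure D2:**
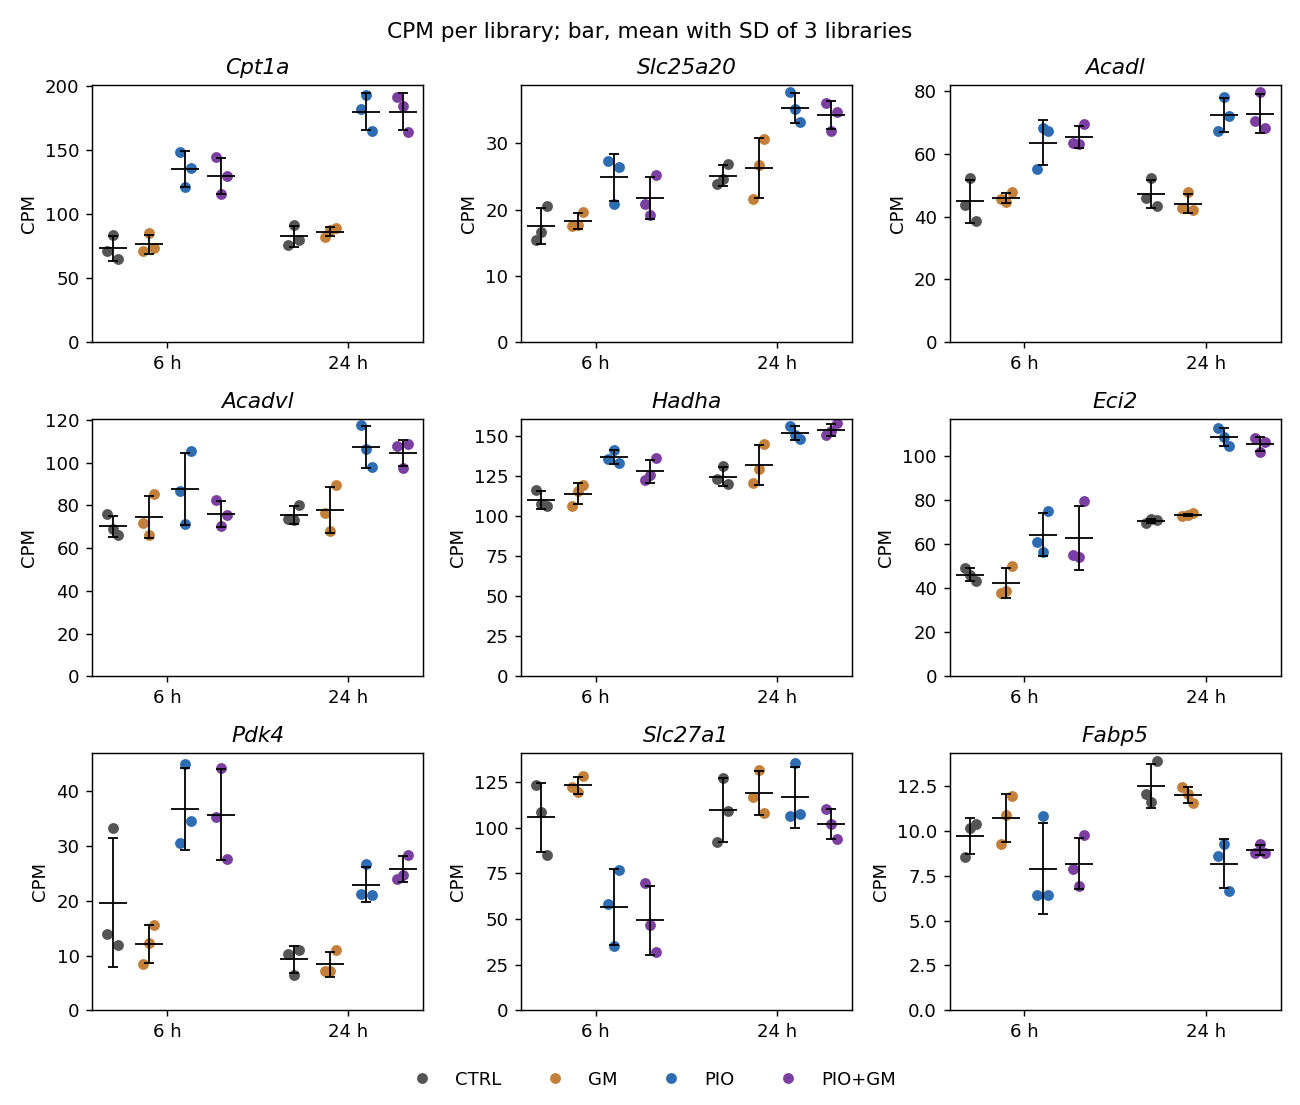
CPM of 9 members in each of the 24 libraries, by treatment and time, with points for libraries and bars for the group mean ± SD (n = 3). The Cpt1a points with pioglitazone lie between 116 and 148 CPM at 6 h and between 164 and 193 CPM at 24 h, above all points without it, whereas Slc27a1 lies lower with pioglitazone at 6 h and overlaps at 24 h.

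Of the 9 members of the mitochondrial spiral, 3 rose at each time. Acadl, the long-chain acyl-CoA dehydrogenase gene, ranged from 38.6 to 52.3 CPM without and from 55.3 to 69.4 CPM with pioglitazone at 6 h, and from 42.2 to 52.3 CPM and from 67.2 to 79.8 CPM at 24 h. The ranges did not overlap, and Acadl rose 1.42-fold (log2 fold change, 0.50 ± 0.08; adjusted p = 0.00164) and 1.59-fold (0.67 ± 0.08; adjusted p = 0.000237). Without the 3 libraries that stood apart, its value at 6 h was 0.46 (adjusted p = 0.0481). Hadha, which encodes the alpha subunit of the mitochondrial trifunctional protein, lay between 106 and 119 CPM without and between 122 and 141 CPM with pioglitazone at 6 h, and between 120 and 145 CPM and between 148 and 158 CPM at 24 h. Small as it was, this rise passed the test at both times (1.18-fold, adjusted p = 0.0134; 1.19-fold, adjusted p = 0.0261). At 24 h the call was lost in 9 of 12 fits that left out 1 library (adjusted p up to 0.0788), and at 6 h it was lost without the 3 libraries that stood apart (0.19; adjusted p = 0.190). Hadhb, the gene of the beta subunit, rose at 6 h (0.38 ± 0.11; adjusted p = 0.0284), and its value at 24 h was 0.18 (adjusted p = 0.451). The call at 6 h was lost in 7 of 12 fits that left out 1 library, and without the 3 libraries that stood apart the value was 0.17 (adjusted p = 0.602). Acadvl rose at 24 h, from between 68.0 and 89.4 CPM to between 97.5 and 118 CPM (1.38-fold; adjusted p = 0.0123), and its log2 fold change at 6 h was 0.18 (adjusted p = 0.201). Acadm and Acads, the medium-chain and short-chain dehydrogenase genes, Echs1, the enoyl-CoA hydratase gene, Hadh and the thiolase gene Acaa2 did not pass the test at either time. The log2 fold change of Acadm was 0.23 at 6 h and 0.14 at 24 h, and that of Acaa2 was 0.22 and 0.48 (adjusted p = 0.303 and 0.0731). At 24 h Acaa2 was called by DESeq2 and in the fit of the 12 libraries of that time alone.

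Of the 6 genes that handle unsaturated chains and electrons, 4 rose at 6 h and 1 rose at 24 h. Eci2 ranged from 38.1 to 50.2 CPM without and from 54.3 to 79.6 CPM with pioglitazone at 6 h, and from 69.8 to 74.1 CPM and from 102 to 113 CPM at 24 h. The groups were apart at both times, and Eci2 rose by 0.52 ± 0.10 (adjusted p = 0.00302) and 0.57 ± 0.10 (adjusted p = 0.00245). Without the 3 libraries that stood apart it rose by 0.47 at 6 h (adjusted p = 0.0213). Decr1, the mitochondrial dienoyl-CoA reductase gene, rose at 6 h (0.48 ± 0.14; adjusted p = 0.0251), and its value at 24 h was 0.36 (adjusted p = 0.162). The call at 6 h was lost in 4 of 12 fits that left out 1 library (replicate 1 of CTRL, replicate 2 of GM, replicate 2 of PIO or replicate 3 of PIO+GM), and without the 3 libraries that stood apart the value was 0.23 (adjusted p = 0.501). Etfdh, which encodes the dehydrogenase that hands electrons from the flavoprotein to ubiquinone, rose 1.49-fold at 6 h, from between 36.8 and 43.3 CPM to between 44.7 and 70.3 CPM (0.58 ± 0.10; adjusted p = 0.00168). This call too was lost without the 3 libraries that stood apart (0.31; adjusted p = 0.0755). At 24 h its groups did not overlap either (47.9 to 59.3 and 61.4 to 69.7 CPM), but the value of 0.29 ± 0.10 did not pass the test (adjusted p = 0.118). Etfdh was called at 24 h with the trend on GC content removed and in the fit of the 12 libraries of that time alone. Etfa, a subunit of the flavoprotein, rose at 6 h (0.41 ± 0.09; adjusted p = 0.00739), and its value without those 3 libraries was 0.28 (adjusted p = 0.210). Etfb, the other subunit, did not pass the test at either time (0.18 and 0.23).

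Pdk4 encodes the kinase that inhibits pyruvate dehydrogenase and so spares glucose when fatty acids are burned. It had the largest log2 fold change among the members at both times. At 6 h its level was 13.8, 33.2 and 11.9 CPM in CTRL and 8.5, 12.2 and 15.6 in GM, against 30.5, 44.9 and 34.5 in PIO and 35.2, 44.1 and 27.6 in PIO+GM. Replicate 2 of CTRL stood within the pioglitazone range. At 24 h all libraries without pioglitazone lay between 6.54 and 11.1 CPM and all with it between 21.0 and 28.4 CPM. Pdk4 rose 2.34-fold at 6 h (1.23 ± 0.23; adjusted p = 0.00277) and 2.75-fold at 24 h (1.46 ± 0.23; adjusted p = 0.00164). With the 3 libraries that stood apart left out, its value at 6 h was 1.13 and did not pass the test (adjusted p = 0.0645). The uncoupling protein genes Ucp2 and Ucp3 did not pass the test at either time, with log2 fold changes of −0.28 and −0.56 at 6 h and of 0.28 and 0.69 at 24 h.

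Of the 6 uptake and binding genes 0 rose and 2 fell, 1 at each time. Slc27a1 was at 123, 108 and 85.2 CPM in CTRL and 122, 119 and 128 in GM at 6 h, against 58.1, 35.4 and 76.8 in PIO and 69.6, 46.6 and 31.9 in PIO+GM. Every pioglitazone library was lower, and the 3 lowest of them were the libraries that stood apart. Slc27a1 fell by 1.10 ± 0.17 on the log2 scale (adjusted p = 0.00101), and by 0.74 without those 3 libraries (adjusted p = 0.0242). At 24 h it ranged from 92.3 to 132 CPM without and from 93.8 to 136 CPM with pioglitazone, and its log2 fold change was −0.07 ± 0.17 (adjusted p = 0.90). The change between times was itself 1.04 ± 0.24, with an adjusted p of 0.219. Fabp5, the epidermal fatty acid binding protein gene, ranged from 11.5 to 13.9 CPM without and from 6.65 to 9.24 CPM with pioglitazone at 24 h. It fell by 0.52 ± 0.14 (adjusted p = 0.0420), a call that was lost when any 1 of the 12 libraries of 24 h was left out (−0.57 to −0.46; adjusted p between 0.0511 and 0.117). The values of Cd36 were −0.12 at 6 h and 0.34 at 24 h, and those of Lpl −0.62 and 0.52. Those of the heart-type binding protein gene Fabp3 were 0.11 and −0.44, and the values of these genes did not pass the test. With a term for the replicate number in the fit, Lpl was called at 6 h (27.0% of all genes called). Fabp4 was too low to test, at 0 to 1.56 CPM.

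Among the 4 acyl-CoA synthetase genes, Acsl4, whose product prefers arachidonic acid, rose at 6 h (0.52 ± 0.17; adjusted p = 0.0438), with groups that overlapped (101 to 147 and 120 to 224 CPM). Without the 3 libraries that stood apart its value was 0.23 (adjusted p = 0.674). Acsl1, Acsl3 and Acsl5 did not pass the test at either time, and at 24 h the values of all 4 lay between −0.14 and −0.009. Of the 5 peroxisomal genes 0 were called at either time in edgeR, with values between −0.08 and 0.27 at 6 h and between 0.01 and 0.29 at 24 h. At an unadjusted p under 0.05, and by DESeq2, there were also 0 of them. In the edgeR fit of the 12 libraries of 24 h alone, 1 was called, Acaa1a, a thiolase gene. Acot1, a cytosolic acyl-CoA thioesterase gene, ranged from 50.4 to 60.7 CPM without and from 75.2 to 101 CPM with pioglitazone at 24 h without overlap, but its value of 0.62 ± 0.17 did not pass the test (adjusted p = 0.0578), although DESeq2 and the fit of the 12 libraries of 24 h alone called it. That of Acot2, its mitochondrial neighbour, was 0.38 (adjusted p = 0.268), and the fit of the 12 libraries of 24 h alone called it too. Reads of this pair are hard to assign, since 15.4% of the 76-base windows of Acot1 and 21.0% of those of Acot2 also occur in other genes of the family (Acot2 or Acot5 for Acot1, and Acot1, Acot4 or Acot5 for Acot2).

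**Figure D3:**
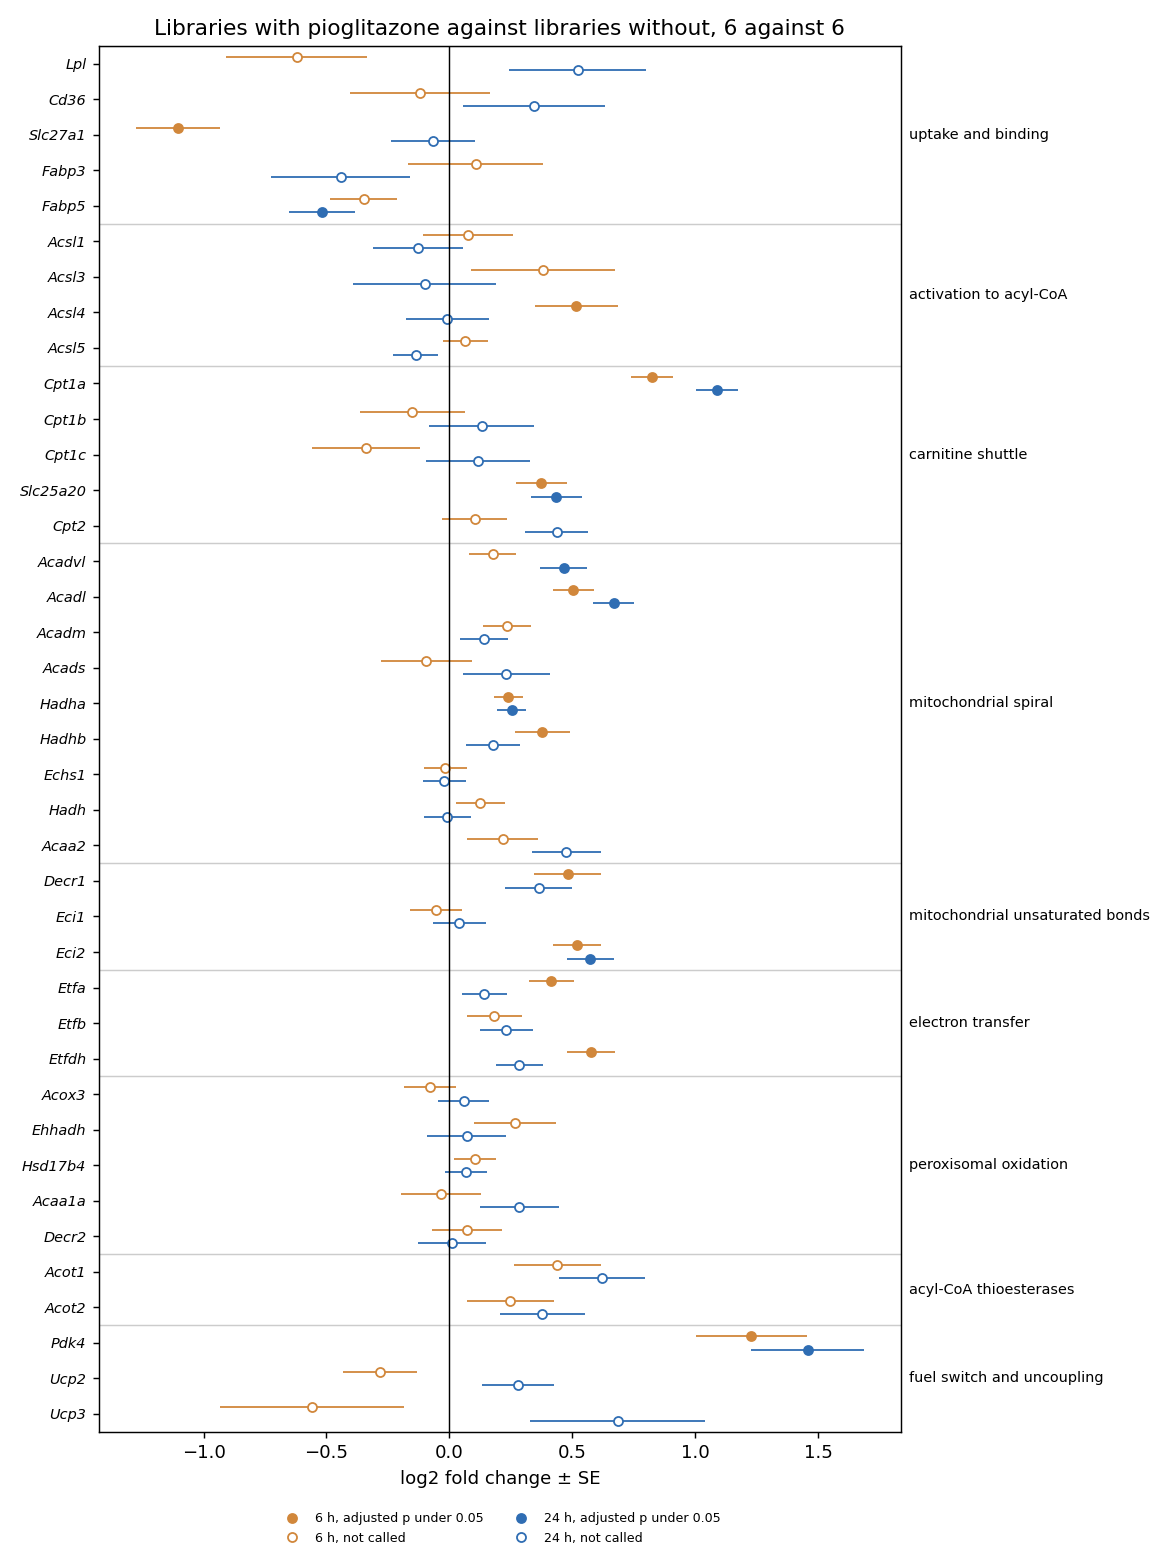
Log2 fold change ± SE with pioglitazone, averaged over gentamicin (6 libraries against 6), for the 39 tested members by role at 6 h and at 24 h, with filled symbols for members called. Pdk4 and Cpt1a lie farthest to the right at both times, and Slc27a1 lies lowest at 6 h and near 0 at 24 h.

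Groups were also compared by whether their libraries overlapped. At 6 h, every pioglitazone library lay above every library without it for 6 members (Acadl, Cpt1a, Eci2, Etfdh, Hadha and Hadhb), where 2.58% of all tested genes did so, and below for Slc27a1 (1.54% of all genes). At 24 h the corresponding counts were 10 members above (3.16% of all genes) and 1 below, Fabp5 (2.98%). Acadl, Cpt1a, Eci2, Etfdh and Hadha were in this class at both times.

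At 6 h, base composition moved with the pioglitazone comparison. Across 15390 genes with a known GC content, the averaged log2 fold change at 6 h had a Spearman's rho of −0.56 with GC content, against −0.05 at 24 h. For PIO against CTRL, rho was −0.39 at 6 h and 0.12 at 24 h, and for PIO+GM against GM −0.62 and −0.24. Between times it was 0.31 in PIO and 0.35 in PIO+GM, against 0.03 in CTRL and 0.07 in GM. The median GC content was 43.8% in all genes called higher, 49.8% in all tested genes and 45.0% in the 11 members called higher. With the GC trend removed from each library, 11 members were called at 6 h (10.6% of all genes), 9 of them among the 12 called without that step. Hadhb, Decr1 and Acsl4 were not (log2 fold changes, 0.08, 0.31 and 0.20), and Acadvl and Etfb were called in addition. With the 3 libraries left out, 4 members were called (0.733% of all genes), namely Slc27a1, Cpt1a, Acadl and Eci2. In a fit of the 12 libraries of 6 h alone, 3 were called (0.907% of all genes), Slc27a1, Cpt1a and Acadl, with an adjusted p for Cpt1a of 0.0100. In the corresponding fit of 24 h, 14 members were called, and the share of all genes called rose as well, from 2.79% to 8.68%.

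Markers of other cells also moved with pioglitazone. At 24 h, the summed level of 7 fibroblast markers lay between 2079 and 2708 CPM with pioglitazone and between 3437 and 4267 CPM without it, and 3 of the 7 fell (Dcn, Pdgfra and Postn). At 6 h the ranges overlapped (2097 to 3030 and 2558 to 4100 CPM), and Pdgfra fell. Of 10 hair cell markers, Myo7a, Pou4f3 and Gfi1 fell at 6 h and 0 were called at 24 h, while of 8 Schwann cell markers Erbb3 and Ncmap fell at 6 h, with a summed level of 394 to 2647 CPM with and 864 to 2863 CPM without pioglitazone. The endothelial marker Cldn5 fell at 6 h, 0 of 10 macrophage and 0 of 10 supporting cell markers were called at either time, and 6 adipocyte markers were each at or below 1.08 CPM. Beside these falls at 6 h, 6.83% of all genes were called lower. Of the markers that fell at 6 h, Pdgfra was also called without the 3 libraries that stood apart (−0.77; adjusted p = 0.0137), whereas Myo7a, Pou4f3, Gfi1, Erbb3, Ncmap and Cldn5 were not (−1.01 to −0.51). With the GC trend removed, Pdgfra and Erbb3 were called. The part of these markers in the values of the fatty acid genes was not tested.

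The pioglitazone effect was next examined without and with gentamicin, in comparisons that share no library. Between PIO and CTRL, 1 member, Cpt1a, was called at 6 h (0.337% of all genes) and 2, Cpt1a and Acadl, at 24 h (0.153%). Between PIO+GM and GM, 6 members were called at 6 h (1.32% of all genes), of which Cpt1a, Acadl, Eci2, Etfdh and Pdk4 rose (0.601% of all genes called higher) and Slc27a1 fell (0.723% called lower). At 24 h, 2 were called, Cpt1a and Acadl (0.110%). The log2 fold change of Cpt1a was 0.88 ± 0.12 (adjusted p = 0.00525) without and 0.77 ± 0.12 (adjusted p = 0.00721) with gentamicin at 6 h, and 1.12 ± 0.12 (adjusted p = 0.000170) and 1.06 ± 0.12 (adjusted p = 0.000410) at 24 h. That of Acadl at 24 h was 0.62 ± 0.12 (adjusted p = 0.0402) and 0.72 ± 0.12 (adjusted p = 0.0226), calls that were kept in 1 and 0 of the 6 fits that each left out 1 library. Pdk4 rose by 1.56 ± 0.32 with gentamicin at 6 h (adjusted p = 0.0330), and its value without it was 0.90. The latter value includes replicate 2 of CTRL, whose Pdk4 level lay within the pioglitazone range. Among the 39 tested members, both values were positive for 22 and both negative for 7 at 6 h, and for 28 and 4 at 24 h. The corresponding shares of all genes are not given here. At 6 h, though not at 24 h, the values over all genes fell with GC content in both comparisons. The difference between the paired effects, tested as an interaction, was called by edgeR for 0 members at 6 h and 0 at 24 h (0% of all genes at both times), with 0 at an unadjusted p under 0.05 and 0 by DESeq2. Calls of PIO+GM against GM at 6 h rested on single libraries. They numbered 0 without replicate 1 of GM, 1 without replicate 2 or 3 of GM or of PIO+GM, and 13 without replicate 1 of PIO+GM. They also numbered 0 without the 3 libraries that stood apart, of which this comparison holds 2.

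**Figure D4:**
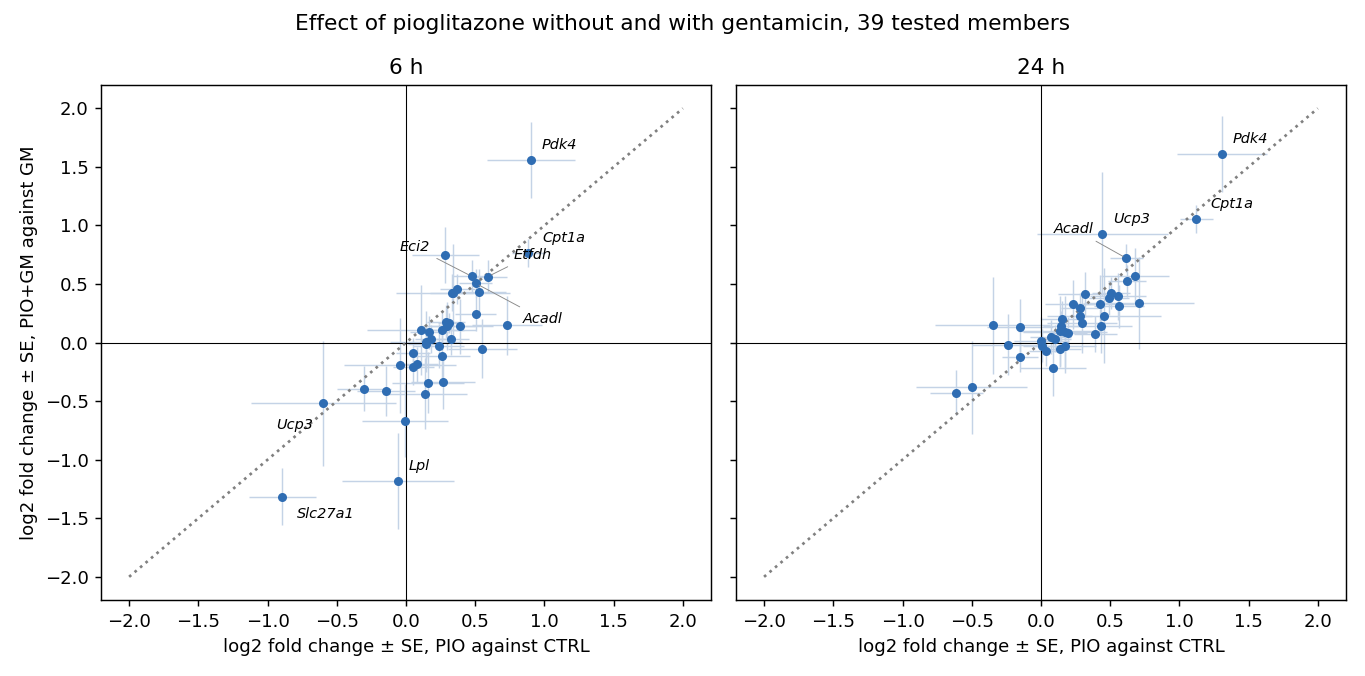
Log2 fold change ± SE of PIO against CTRL (x axis) and of PIO+GM against GM (y axis) for the 39 tested members at 6 h and at 24 h. Cpt1a lies near 0.88 and 0.77 at 6 h and near 1.12 and 1.06 at 24 h, and the points of 22 and 28 members lie above 0 on both axes.

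Gentamicin alone gave no call among these genes. Between GM and CTRL, edgeR called 0 members at 6 h (0% of all genes) and 0 at 24 h (0.0123%), and DESeq2 called 0 at both times. At an unadjusted p under 0.05 there was 1 member at 6 h, Pdk4 (−0.69 ± 0.32), and 1 at 24 h, Ucp3 (−1.19 ± 0.53). Without replicate 2 of CTRL, which was at 33.2 CPM beside 13.8 and 11.9 CPM, the value of Pdk4 was −0.08. The levels of Ucp3 in these 6 libraries were at or below 1.66 CPM. The median log2 fold change of the members was 0.05 at 6 h and 0.06 at 24 h. That of Cpt1a was 0.06 ± 0.12 at both times, that of Acadl 0.04 ± 0.12 and −0.10 ± 0.12, and that of Hadha 0.05 ± 0.08 and 0.08 ± 0.08. The next lowest p-values belonged to Acsl5 (0.26 ± 0.13) and Cpt1b (0.51 ± 0.30) at 6 h and to Etfb (0.21 ± 0.15) and Acsl4 (−0.28 ± 0.24) at 24 h. At 24 h, the summed level of 10 hair cell markers was 223 to 282 CPM in GM and 317 to 457 CPM in CTRL. Between these groups 0 of the 10 were called. The summed level at 24 h was 190 to 365 CPM in PIO and 151 to 266 CPM in PIO+GM.

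More members were called between 24 and 6 h within a treatment than for either drug. From 6 to 24 h, 16 members rose and 3 fell in CTRL (48.7% against 28.0% of all genes, 14.8% called higher), 17 rose and 1 fell in GM (24.2% of all genes, 12.5% higher), 17 rose and 2 fell in PIO (29.0%, 13.2% higher) and 22 rose and 2 fell in PIO+GM (34.6%, 17.6% higher). The median log2 fold change of the members lay between 0.35 and 0.47 in the 4 treatments. Time is confounded with anything that differed between the sets of libraries of 6 and 24 h, and the 4 comparisons share no library with each other. In all 4 treatments 11 members rose: the thiolase genes Acaa1a and Acaa2, Acads, Acot1, Cpt1c, Decr2, Eci2, Etfb, Hadh, Hsd17b4 and Slc25a20. Without the 3 libraries that stood apart, 14 of the 19 calls in PIO and 18 of the 24 in PIO+GM were kept, and Hadh, Hsd17b4 and Slc25a20 were not called in PIO. This leaves 1 PIO+GM library at 6 h, which is assumed to vary like the other groups. When single libraries were left out, the calls of Acaa2, Acot1, Decr2 and Eci2 were kept in 6 of 6 fits in each treatment. Those of Acaa1a were kept in 2 of 6 fits in CTRL and 1 of 6 in GM, that of Acads in 1 of 6 in GM, those of Slc25a20 in 3 of 6 in CTRL and in GM, those of Hsd17b4 in 3 of 6 in GM and in PIO, and that of Etfb in 3 of 6 in CTRL. With the GC trend removed, Etfb was called in GM alone.

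Of the 5 peroxisomal genes, 5 rose in CTRL, 4 in GM, 4 in PIO and 5 in PIO+GM. The call of Ehhadh was kept in 3 of 6 fits that left out 1 library in CTRL (0.58 to 0.93) and in 3 of 6 in PIO+GM. Decr2, the peroxisomal dienoyl-CoA reductase gene, went from 16.5, 12.8 and 17.5 CPM at 6 h to 35.2, 34.9 and 39.5 CPM at 24 h in CTRL (1.23 ± 0.20; adjusted p = 0.000242). Acox3, a branched-chain acyl-CoA oxidase gene, rose by 0.59 ± 0.15, Ehhadh by 0.76 ± 0.23, Hsd17b4, which encodes the other bifunctional enzyme, by 0.42 ± 0.12 and Acaa1a by 0.67 ± 0.23 in CTRL, with adjusted p between 0.00599 and 0.0350. In the shuttle, Cpt1c rose from 29.4, 15.3 and 29.7 CPM to 57.7, 69.9 and 62.4 CPM in CTRL (1.35 ± 0.31; adjusted p = 0.00322), and the libraries of the 2 times did not overlap. In the spiral, Acaa2 rose by 1.04 ± 0.21 in CTRL and by 1.53 ± 0.21 in PIO+GM, Acads by 0.97 ± 0.26 and 1.28 ± 0.26, and Hadh by 0.63 ± 0.14 and 0.70 ± 0.14. Acsl5 fell in all 4 treatments, by 0.38 ± 0.13 in CTRL and by 0.77 ± 0.13 in PIO+GM. The call in CTRL (adjusted p = 0.0336) was kept in 0 of 6 fits that left out 1 library, and it was lost when libraries were scaled by their totals alone and with no filter, whereas the calls in the other treatments were kept in 6 of 6. Cd36 fell by 1.20 ± 0.41 and Pdk4 by 1.08 ± 0.33 in CTRL, and neither was called in the other treatments. Replicate 2 of CTRL at 6 h was the highest of its group for each (56.5 CPM for Cd36 and 33.2 CPM for Pdk4), and without it the values were −0.56 and −0.47 and did not pass the test (adjusted p = 0.364 and 0.266). Acsl4 fell in PIO (−0.65 ± 0.24; adjusted p = 0.0487) and in PIO+GM (−0.91 ± 0.24; adjusted p = 0.00689). Leaving out the 3 libraries that stood apart gave −0.37 and −0.61, which did not pass the test (adjusted p = 0.291 and 0.142), and the call in PIO was kept in 1 of 6 fits that left out 1 library. In no treatment were 10 members called, among them Acadl, Hadhb and Acsl3. In CTRL, 1 of 10 macrophage markers rose from 6 to 24 h (C1qa), with a summed level of the 10 of 51.4 to 111 CPM and 102 to 139 CPM. C1qa also rose in the other treatments, together with Cx3cr1 and C1qc in PIO and with Cx3cr1, C1qb and C1qc in PIO+GM. Of 10 supporting cell markers Gjb6 and Cdkn1b rose in CTRL (2067 to 6542 and 3732 to 5288 CPM in sum), and Gjb6 also rose in the other treatments (1.00 to 1.55 over all 4), together with Gjb2 in PIO+GM. Of 7 fibroblast markers Postn and Pdgfra rose in CTRL (2660 to 4100 and 3437 to 3833 CPM in sum), and 0 of 10 hair cell markers were called there. Postn also rose in GM, whereas Pdgfra rose and Dcn fell in PIO and in PIO+GM. Of the hair cell markers, Calb2 fell in GM and PIO+GM, and Espn rose in PIO and PIO+GM. In each treatment 0 of 10 endothelial markers were called. Of 10 muscle markers, 5 of them tested, Actn3 rose in CTRL and GM, and Myh8 fell in CTRL, GM and PIO. The summed level of 8 Schwann cell markers was 864 to 2156 CPM at 6 h and 373 to 702 CPM at 24 h in CTRL, 1054 to 2863 and 419 to 888 CPM in GM, 473 to 1673 and 324 to 570 CPM in PIO, and 394 to 2647 and 355 to 926 CPM in PIO+GM. Their part in these values was not tested.

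**Figure D5:**
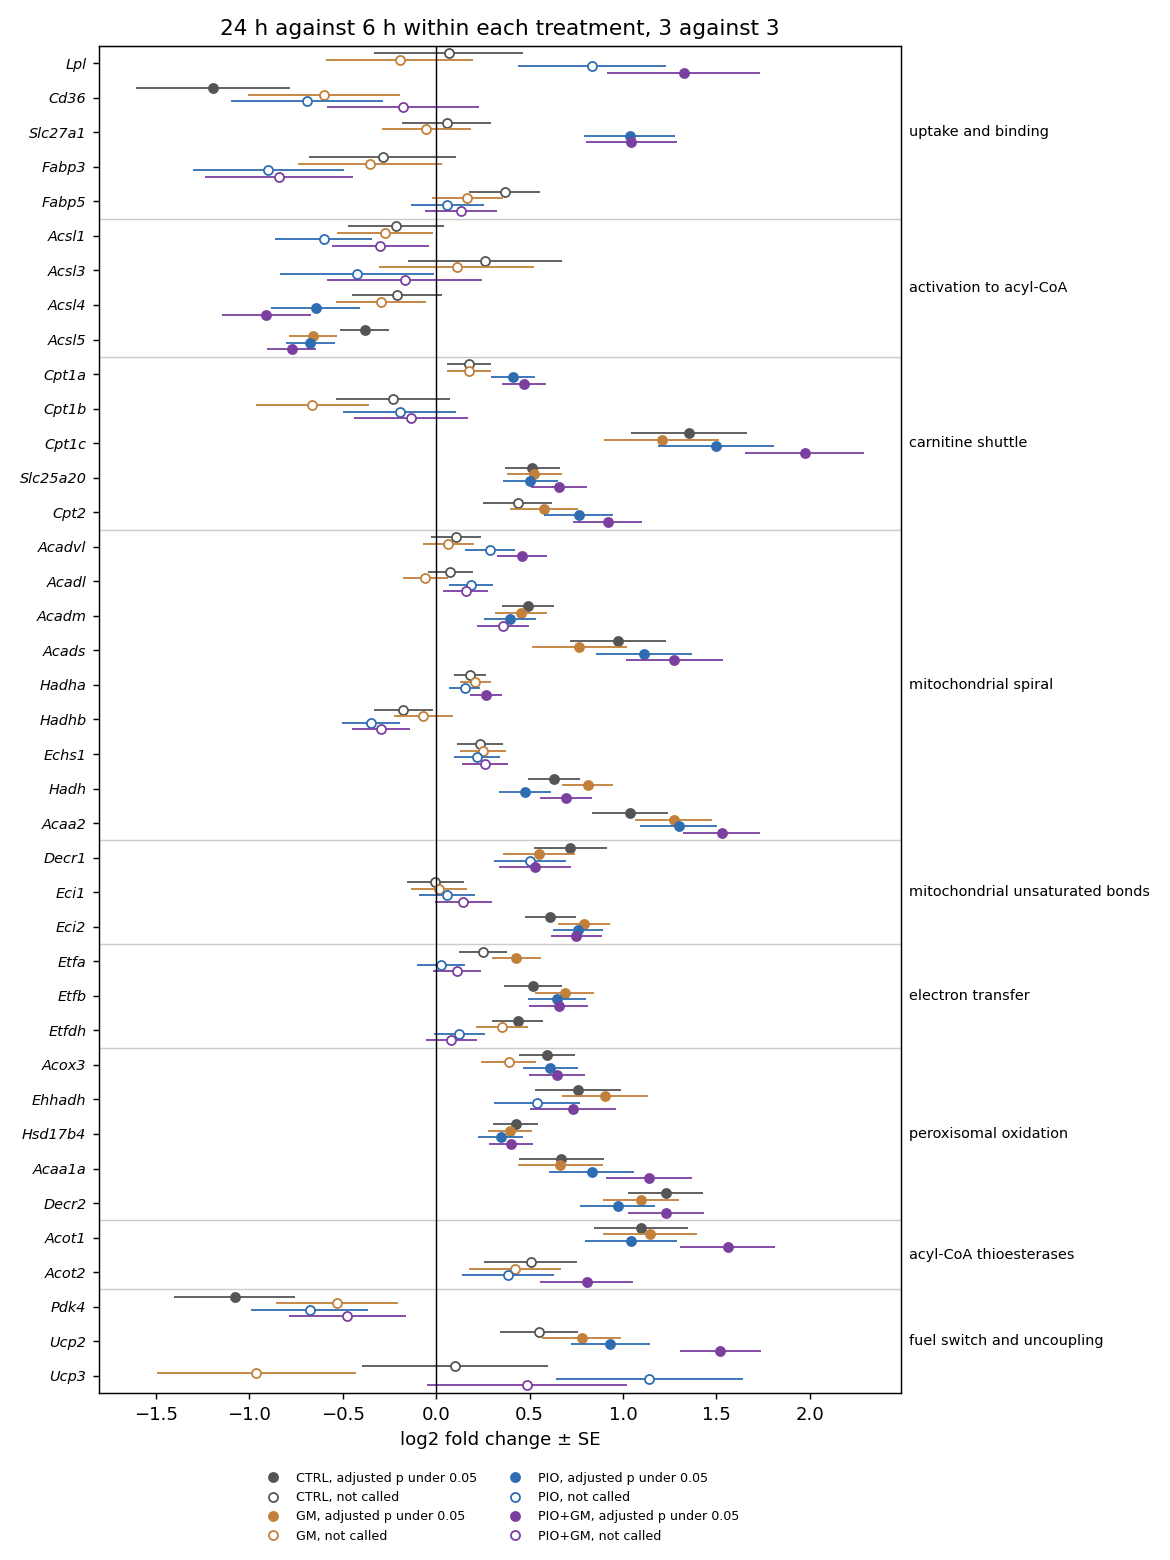
Log2 fold change ± SE between 24 and 6 h in CTRL, GM, PIO and PIO+GM (3 libraries against 3 each) for the 39 tested members by role, with filled symbols for members called. The 5 peroxisomal genes lie to the right of 0 in all 4 treatments, and Acsl5 lies to the left in all 4.

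Whether pioglitazone acted differently at 6 and 24 h was tested as an interaction of the averaged effect with time. In edgeR 0 members were called (0.00613% of all genes), 9 had an unadjusted p under 0.05, and DESeq2 called 1, Slc27a1. Its change from a fall at 6 h to a value near 0 at 24 h is the largest in error units, yet in edgeR it did not pass over all genes. The acyl-CoA synthetase genes had lower values at 24 h than at 6 h in all 4 cases (−0.52 to −0.20), and the shuttle genes had higher ones in all 5 (0.06 to 0.45). Over all genes with a known GC content, however, this change between times rose with GC content (Spearman's rho, 0.57). Each of the 4 synthetase genes had a lower GC content than each of the 5 shuttle genes. Whether the 2 roles differed apart from this trend was not tested.

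Further genes of fatty acid metabolism were counted in a list of 89, of which 76 were tested. With pioglitazone averaged over gentamicin, 8 rose and 2 fell at 6 h (9.25% and 6.83% of all genes), and 2 rose and 2 fell at 24 h (0.791% and 2.00%). The 10 of 76 called at 6 h are thus a smaller share than the 16.1% of all genes. Angptl4, a secreted inhibitor of lipoprotein lipase, rose by 1.35 ± 0.29 at 6 h (adjusted p = 0.00693) and by 3.01 ± 0.30 at 24 h (adjusted p = 2.94e-05). The ketone-using genes Bdh1 (−0.46 at 6 h and −0.51 at 24 h) and Oxct1 (−0.57 at 24 h) fell. The lipid droplet coat gene Plin2 did not pass the test (−0.29 and −0.02). At 6 h, Hsdl2, Nudt7, Crot, Acat1, Mmut, Abcd3 and Ucp1 also rose (0.23 to 1.25), and Acsbg1 fell by 0.86. Of the 10 genes called at 6 h, Angptl4 alone was called without the 3 libraries that stood apart (1.60; adjusted p = 0.0481), and Angptl4, Hsdl2 and Bdh1 with the GC trend removed. From 6 to 24 h in CTRL, 30 of the 76 rose and 3 fell (14.8% of all genes rose).

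Some values rest on sequence that is not unique. Of the 76-base windows along the transcripts of a gene, 92.0% of those of Cpt1b occurred in the overlapping gene Gm44502 and 66.3% of those of Etfb in Gm45233, both on the same strand. The share was 25.7% for Fabp3 and 12.4% for Acaa1a, so that their reads could have been split or shared. Acadvl overlaps Dvl2 on the opposite strand (13.7% of its windows), and use of the strand in counting is not given in the sources used here.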

How the data were processed

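RNA was measured in 24 libraries of OC explants. The authors prepared stranded total RNA libraries, read 76 bases from 1 end, mapped with STAR to mm10 as the submitters' processing notes list, and counted with QuasR the reads that start in any RefSeq exon of a gene. The deposited values are raw counts per gene, not normalized, and strand use and the handling of multiply mapped reads are not given in the sources used here. Counts of all 24454 genes, 24374 of them with a symbol, entered TMM normalization, filterByExpr and 1 quasi-likelihood fit of the 8 group means (edgeR 4.0.16, R 4.3.3) with no replicate term, and 15 comparisons were drawn from it. Adjustment ran over all 16317 tested genes, with a threshold of 0.05. SE were derived from the F statistic, and log2 CPM used a prior count of 2. GC content and windows of shared sequence came from GENCODE transcripts of GRCm38, and promoters from RefSeq (Python 3.11.15, pandas 2.3.3). Counting error alone sets the floor of 3 counts.

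Named genes are the members called in any comparison, the 3 with the lowest p in each drug comparison, a fixed set of 15 well-known members, and Angptl4, Plin2 and those genes of the list of further fatty acid genes that were called for the averaged pioglitazone effect, of which 1 is not reported here. Calls of that list in the comparisons of times are given as counts. Members, roles, lists and tests were chosen with earlier results of these data known. Alternatives were library totals without TMM factors, no filter, at least 10 counts in every library, a replicate block, the 12 libraries of a time point alone, DESeq2 1.42.0 and leaving out each library. Removal of a GC trend, omission of 3 libraries at 6 h and a block of replicate numbers shared by both times were added after the data were seen. Simulated counts in which 200 genes had been changed were used to test the scripts.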

Additional observations from a re-analysis of the deposited data

Results flagged for a closer look

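Eci1, an enoyl-CoA isomerase gene of the mitochondrial matrix, was singled out because its 3 PIO libraries at 6 h (18.9 to 19.6 CPM) all lay above the 3 CTRL libraries (17.7 to 18.8 CPM), while its 3 PIO+GM libraries (16.3 to 17.2 CPM) all lay below the 3 GM libraries (18.0 to 19.5 CPM). The effects of pioglitazone without and with gentamicin differed by 0.26 on the log2 scale (SE, 0.21), and the test of that difference did not pass (adjusted p = 1.00, edgeR). Neither effect passed by itself (0.08 ± 0.15 and −0.19 ± 0.15), and at 24 h the groups overlapped. Of the 39 members, 1 met this condition, as did 0.0674% of all tested genes.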

How the results depend on the processing

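The number of members called was, for PIO against CTRL at 6 h, 1 in the analysis reported, 7 with DESeq2, 4 with the GC trend removed, 3 with at least 10 counts in every library, 2 without TMM factors, 0 with the 12 libraries of 6 h alone and 5 without the 3 libraries that stood apart. For PIO+GM against GM at 6 h it was 6, and 3 with no filter or with the GC trend removed, 0 with the 12 libraries alone and 0 without the 3 libraries. For PIO against CTRL at 24 h it was 2, and 6 with DESeq2, 4 with the GC trend removed, 1 with no filter and 6 with the 12 libraries alone, and for PIO+GM against GM at 24 h it was 2, and 4 with DESeq2 and 4 with the 12 libraries alone. For the averaged effect it was 12 at 6 h, and 3 with the 12 libraries alone and 4 without the 3 libraries, and it was 8 at 24 h, and 14 with the 12 libraries alone. Its change between times gave 1 member with DESeq2 and 1 with the GC trend removed. The causes were not tested.

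Leaving out 1 library at a time gave 1 to 3 members for PIO against CTRL and 0 to 13 for PIO+GM against GM at 6 h, and 1 to 2 and 1 to 1 at 24 h. For PIO against CTRL at 6 h the count was 3 without replicate 2 of CTRL or replicate 3 of PIO. At 24 h it was 1 without replicate 1 or 3 of CTRL or any 1 of the 3 PIO libraries, and it was 1 for PIO+GM against GM without any 1 of its 6 libraries. The averaged effect gave 8 to 15 at 6 h and 5 to 7 at 24 h, with 5 without replicate 1 of CTRL, replicate 1 of GM, any 1 of the PIO libraries or replicate 3 of PIO+GM. Between times it gave 10 to 18 in CTRL (10 without replicate 2 at 6 h), 8 to 18 in GM (11 and 8 without replicates 1 and 2 at 6 h), 12 to 22 in PIO (12 without replicate 2 at 6 h) and 17 to 27 in PIO+GM. It gave 0 to 1 for the change of the averaged effect between times (1 without replicate 1 of PIO+GM at 6 h), and 0 for gentamicin and for its interaction with pioglitazone.

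With a replicate block, 4 members were called for PIO against CTRL and 10 for PIO+GM against GM at 6 h, and 7 and 4 at 24 h. The averaged effect then gave 14 at 6 h (27.0% of all genes) and 11 at 24 h (7.30%). Lpl and Acot1 were gained at 6 h, and Cpt2, Acaa2 and Acot1 at 24 h. In their deviations from group means, libraries with the same number correlated between −0.305 and 0.684 at 6 h (9 of 18 pairs over 0.1). The mean was 0.113, against −0.055 for pairs with different numbers. At 24 h the correlations lay between −0.025 and 0.723 (15 of 18), with means of 0.380 and −0.182. The coefficient of variation was 0.177 with the block and 0.225 without it. Libraries with the same number thus tended to vary together, more so at 24 h. The labels do not state what the numbers mark, and the block was kept as an alternative. A block within a time point cannot be estimated for the 4 comparisons of times, for which numbers shared by both times were used. For 171 further results (values of single genes, medians and counts over all genes), 2535 alternative values comprised 263 lost calls, 33 gained calls, 0 reversed calls and 105 moved values, 99 of them counts over all genes that moved by over 1.5 times. Across all genes, the averaged effect at 24 h had 129 calls higher and 327 lower, and 518 and 539 with the GC trend removed. Depth limits Fabp4, Ucp3 and Fabp3 most.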
